A study of Mus musculus with 2 samples.

Results

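The stretch of mouse chromosome 4 from 46 to 61 Mb (build mm9) surrounds MeXis, a long noncoding RNA gene, and Abca1, its neighbour. The region was taken as every non-control array probe whose deposited coordinate lay within it, except those named Abca1 or Col15a1. The rule found 282 usable probes of 56351 on the array, under 179 array gene names, and it used position alone, not signal. Their centres lay from 7.23 Mb below to 7.48 Mb above the MeXis probe, which sits at chr4:53274285-53274344 on the minus strand and gives the zero point for all distances here.

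Total RNA came from peritoneal macrophages of WT mice and of MeXis null mice, both given as the strain bl6 and both grown in DMEM with serum. Each genotype was 1 one-colour Cy3 array made from a pool of 3 samples, so no difference below has a replicate check and no p-value is given. The labels do not state how the null allele was made, the age or sex of the animals, or a treatment. The null design raises the question of what happens to transcripts from the genes around the locus when MeXis is lacking.

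Long noncoding RNAs are transcripts that make no protein, and some of them act on genes close to their own site of transcription. MeXis has been described as an RNA induced by the sterol-sensing LXR receptors that helps the transcription of Abca1, the transporter that moves cholesterol out of macrophages to apolipoprotein A-I. Genes of many other kinds share the region, among them transcription factors, proteins of the endoplasmic reticulum, olfactory receptors and major urinary proteins.

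The 60-base sequences that follow are the deposited array probes for the noncoding RNAs on which the results turn. They are MeXis itself, the closest other RefSeq lncRNA (4930522O17Rik), and 3 lincRNA loci, of which one lies next to MeXis, one gave unlike signals on its strands and one was above background in 1 genotype only. The F and R probes lie on the plus and minus strand of the same predicted locus.
MeXis (chr4:53274285-53274344, minus): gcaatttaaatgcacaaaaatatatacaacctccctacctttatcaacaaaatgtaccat
4930522O17Rik (chr4:53259210-53259269, plus): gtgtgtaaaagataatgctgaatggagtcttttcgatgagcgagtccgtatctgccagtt
lincRNA F (chr4:53340553-53340612, plus): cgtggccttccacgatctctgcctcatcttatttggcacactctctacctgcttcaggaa
lincRNA R (chr4:53340552-53340611, minus): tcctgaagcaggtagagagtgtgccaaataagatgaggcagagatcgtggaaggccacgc
lincRNA F (chr4:56018153-56018212, plus): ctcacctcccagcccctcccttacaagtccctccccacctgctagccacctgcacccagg
lincRNA R (chr4:56018129-56018188, minus): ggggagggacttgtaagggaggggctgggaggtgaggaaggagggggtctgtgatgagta
lincRNA F (chr4:59095228-59095287, plus): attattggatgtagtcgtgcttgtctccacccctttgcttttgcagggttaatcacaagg

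For coding genes and copies of coding genes, 30 bases of the probe (bases 16 to 45 of 60, or 25 to 54 for Hemgn) are shown where probes of 1 gene or 1 locus gave different answers, or where the difference was among the furthest from 0. In the Hemgn probe the capitals mark the run of bases that it shares with probes of other genes.
Tmem38b (chr4:53873404-53873463, plus): acttttcctaaatactttttaacctaaaat
Rpl13 (chr4:52254267-52254326, plus): agaacattaaggcttttgccagtctccaaa
ENSMUST00000121199 (chr4:52254331-52254390, plus): agcaaaaagggcgaaggaagctgcagagca
Pakap (chr4:57905932-57905991, plus): aactcaacaaccctcatgtagaccagaagc
Coro2a, first probe (chr4:46550476-46550535, minus): caggtggctatgaacaaaattatatgttgt
Coro2a, second probe (chr4:46583808-46583867, minus): tacatattgaaactctgtctaggagagaaa
Nans, first probe (chr4:46511930-46511989, plus): gttccctttttcaaagttggatctggggac
Nans, second probe (chr4:46515457-46515516, plus): atggaagaatccgtggaaagtcacagcaag
Snx30, first probe (chr4:59912039-59912098, plus): aaggaacctcttaaatggaacactaaaaga
Snx30, second probe (chr4:59917279-59917338, plus): ctaccaaaaaagaatgtcaccttttttctt
Hemgn (chr4:46407248-46407307, minus): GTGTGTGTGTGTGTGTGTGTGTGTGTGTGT

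Signals are the scanner's processed intensities on a linear scale. A difference is log2 of the MeXis null signal minus log2 of the WT signal, after each array's 75th percentile was subtracted, so a difference of -1 is 2-fold lower in MeXis null. The 75th percentile was 2092 on the WT array and 2228 on the MeXis null array. The interval's probes had a median scanner error of 0.206 on the log2 scale. Spots of 1 probe differed more than that: over 285 probes of the array with at least 5 spots, the median SD of the difference between spots was 0.466, which puts the spread limit for a single spot at 0.91 (1.88-fold). A 2-fold difference, the size at which a probe is called here, lies just past that limit. The arrays also held patches in which neighbouring spots shifted together, and each call, and each bound, is therefore also given with the median difference of its 100 nearest spots removed ("surface-corrected").

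The labelled cell type was checked against its markers. All 8 macrophage markers were above background on both arrays, with a summed signal of 302896 in WT and 454038 in MeXis null. Single markers went both ways: Lyz2 was called higher (71554 and 179211, 1.23) and Mertk lower (5608 and 1533, -1.96), and Csf1r differed by -0.88. Large peritoneal macrophage markers were above background on both arrays for 2 of 4 genes, while Timd4 (3.89 and 6.45) and F5 were not. B cell markers summed to 2074 in WT and 799 in MeXis null, with 2 of the 4 genes measured on both arrays called lower. Fibroblast markers summed to 7247 and 12642, and mesothelial markers to 774 and 1845, in WT and MeXis null. The fibroblast markers also went both ways. Col1a2 (2905 and 6621), Col1a1, Dcn and Pdgfra were higher in MeXis null. Col3a1 was slightly lower (915 and 878), and Lum was above background in WT only (131 and 40.3). T and NK cell markers summed to 503 and 317, and eosinophil markers to 4290 and 1619 (with Prg2 and Epx not above background). Of the eosinophil markers, Siglecf read 2430 and 1538, and Ear2 (1475 and 34.3) and Ear1 (376 and 28.6) were above background in WT only. Neutrophil markers summed to 19230 and 12087, and endothelial markers to 5050 and 5838. Csf3r gave most of the neutrophil sum (18755 and 11696), with S100a8 at 438 and 338 and S100a9 not above background. Vwf gave most of the endothelial sum (4647 and 5355). Kdr read 338 and 446 (0.31, inside the spread limit), Pecam1 was above background in WT only (58.3 and 12.8) and Cdh5 on neither array. The part of these other cells in the differences below was not tested, and in bulk RNA fewer cells of a type and less RNA per cell cannot be told apart.

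MeXis was at the detection floor in both genotypes. Its probe read 12.3 in WT and 8.44 in MeXis null which the scanner did not call above background in either case, so no fold is given and the probe does not check the label. The closest lncRNA, 4930522O17Rik, read 5.95 and 11.0, again not above background. Abca1, whose brighter probe lies 0.23 Mb below MeXis, read 4339 in WT and 1478 in MeXis null, a difference of -1.64 (surface-corrected -1.58). It is given only as the landmark of the region and enters no count.

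Signal was unevenly spread along the region. Of the 282 probes, 105 (37.2%) were well above background on both arrays, 15 on WT only, 4 on MeXis null only and 158 on neither. Over all probes the share above background on both arrays was 40.3%, and over the rest of chromosome 4 it was 42.4%. WT only also outnumbered MeXis null only over the whole array, with 2893 and 709 of 56351 probes. The share was 25.9% of 27 probes within 0.5 Mb of MeXis, 53.8% of 13 probes from 0.5 to 1 Mb, 40.0% of 10 probes from 1 to 2 Mb, 21.3% of 75 probes from 2 to 4 Mb, and 45.2% of 157 probes beyond 4 Mb. The lowest signal called above background was 12.1 on the WT array and 27.3 on the MeXis null array, which favours calls on WT only. Some brighter probes were not called, such as Ctnnal1 at 26.9 in WT and Fsd1l at 47.2 in MeXis null. A bound, given below for probes above background on 1 array, was taken against the higher of that lowest signal and the probe's own dim signal. It is therefore not a strict limit on the fold.

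**Figure D1:**
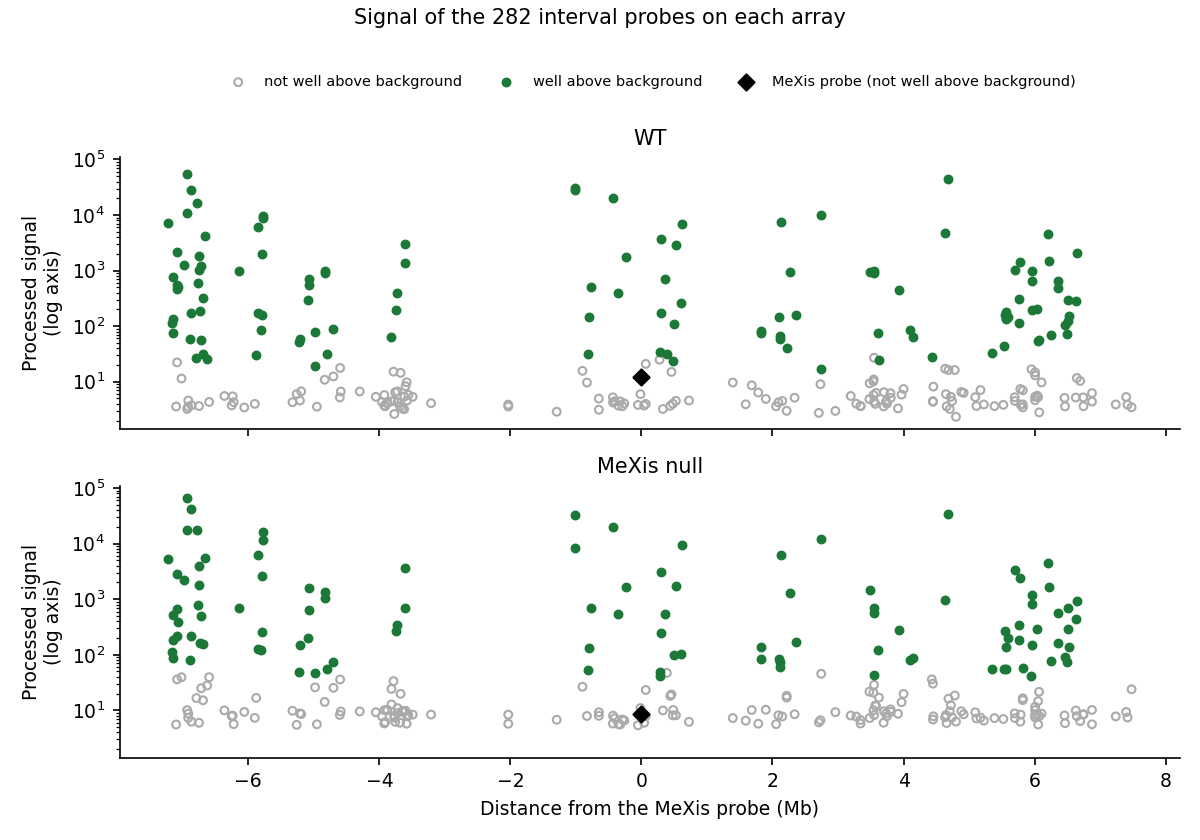
Processed signal (log axis) of the 282 probes against distance from the MeXis probe (Mb), on the WT array (top) and the MeXis null array (bottom); filled points were well above background on that array and open points were not. The MeXis probe (diamond) lies among the open points on both arrays, at 12.3 and 8.44.

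Kinds of transcript differed in whether they were measured at all. Of 196 probes of protein-coding genes, 89 were above background on both arrays. None of the 21 probes of RefSeq lncRNAs was above background on either array, and 4 of the 19 lincRNA probes were above it on both. All 5 olfactory receptor probes, for odorant receptors of the nasal epithelium, and all 7 probes of the Mup genes, which encode major urinary proteins made mainly by liver, were below background on both arrays. The 10 probes of transcripts that Ensembl predicts had 7 above background on both arrays, with a median signal of 6879 in WT, against 461 for the protein-coding probes. Levels of different probes carry their own affinities, and this contrast describes probe signal only.

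Across the region 16 of 105 measured probes (15.2%) differed by 2-fold or more, against 12.5% over all probes of the array. Of the 105 probes above background on both arrays, 10 (9.52%) were lower in MeXis null by 2-fold or more and 6 (5.71%) were higher by as much, read against 4.74% lower and 7.73% higher over all 22733 such probes of the array. On the rest of chromosome 4 the shares were 4.54% and 7.73% of 1345 probes. With the surface correction the region had 6 probes (5.71%) lower and 2 (1.90%) higher, against 3.29% and 3.67% over all probes. The median difference was 0.08 in the region and 0.06 over all probes, and the surface-corrected medians were -0.10 and -0.02. The middle range of the region's differences, from the first to the third quartile, ran from -0.37 to 0.37, inside the spread limit of a single spot.

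**Figure D2:**
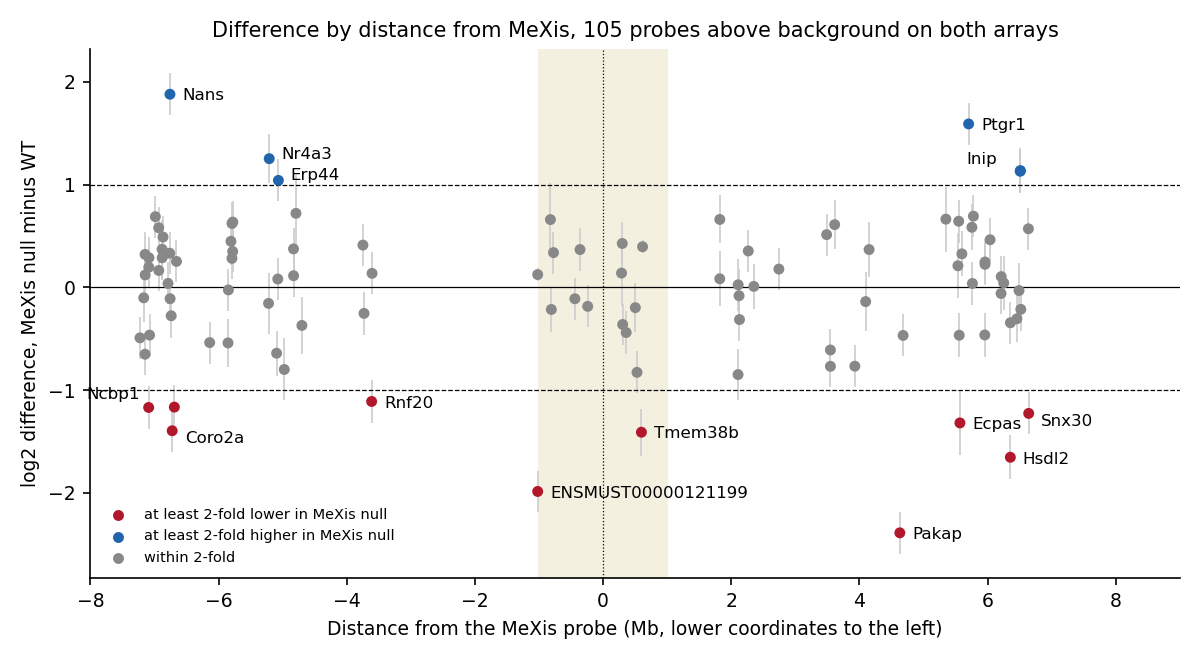
Difference (log2, MeXis null minus WT) of the 105 probes above background on both arrays against distance from the MeXis probe (Mb); bars are the scanner error, dashed lines mark 2-fold and the shaded band is the 1 Mb on each side. Of the 14 probes inside the band, Tmem38b alone passes a dashed line.

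With Abca1 left out by the rule, distance from MeXis did not order the differences of the measured probes. Over the 105 probes, Pearson's r between the difference and the absolute distance was 0.115 and Spearman's rho 0.075, as a description of probes that share 2 arrays. Within 1 Mb, 14 of 40 probes were above background on both arrays, with a median difference of -0.15, 1 lower call and no higher call. Beyond 1 Mb, 91 probes had a median of 0.10, with 9 called lower and 6 higher. By distance, 0 of 7 probes within 0.5 Mb, 1 of 7 from 0.5 to 1 Mb, 1 of 4 from 1 to 2 Mb, 1 of 16 from 2 to 4 Mb and 13 of 71 beyond 4 Mb were called in either direction, beside 12.5% over all probes. The lower-coordinate and higher-coordinate sides each held 5 lower and 3 higher calls, of 53 and 52 probes. Adjacent genes had the same sign in 35 of 65 pairs (53.8%), against 50.8% of 15380 pairs over all chromosomes.

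Abca1 aside, the probes within 0.5 Mb of MeXis that had signal on both arrays stayed within 2-fold. On the lower-coordinate side, Nipsnap3b, a member of a mitochondrial protein family and the next gene beyond Abca1 with signal, read 1760 in WT and 1648 in MeXis null, a difference of -0.19. Its relative Nipsnap3a read 4.07 and 6.56 and was not above background. Further out, among olfactory receptor genes below background, lie ENSMUST00000120435, which read 19912 and 19632 (-0.11), and the pseudogene ENSMUST00000118023, which read 390 and 536 (0.37). Smc2, the core ATPase of condensin, lies beyond 0.5 Mb, with 3 probes from 0.77 to 0.82 Mb below MeXis. These probes read 31.5 and 53.0, 145 and 133, and 513 and 691 in WT and MeXis null. Their differences of 0.66, -0.22 and 0.34 did not share a sign.

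On the higher-coordinate side, Slc44a1, a choline transporter, was read by 4 probes between 0.29 and 0.36 Mb from MeXis. The probe with the highest signal read 3685 in WT and 3054 in MeXis null (-0.36), and the probe furthest along the gene read 693 and 544 (-0.44). The other two read 170 and 243 (0.43), and 34.9 and 40.9 (0.14). The 2 lincRNA probes at 0.07 Mb, which read opposite strands of the same 60 bases shifted by 1, gave 20.9 and 23.2 for the plus strand and 3.98 and 7.86 for the minus strand, none above background. The transcript 1700060J05Rik, 0.28 Mb away, was above background in MeXis null only, at 24.9 in WT and 49.4 in MeXis null. Its bound was 1.87-fold higher (surface-corrected 1.38-fold).

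Tmem38b was the only called probe within 1 Mb of MeXis. The gene encodes TRIC-B, a cation channel of the endoplasmic reticulum, and lies 0.60 Mb from the MeXis probe. Its probe read 260 in WT and 104 in MeXis null, a difference of -1.41 (2.66-fold lower). Its neighbouring spots were also low in MeXis null, and the surface-corrected difference was -0.84, short of 2-fold. The pseudogene transcript ENSMUST00000117914, at 0.53 Mb, read 2935 and 1761 (-0.83, surface-corrected -0.91).

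Adjoining bright probes placed 1.02 Mb below MeXis gave contrary readings. Whether the signal of either came from this locus was not tested. ENSMUST00000121199, a predicted transcript, read 30996 in WT and 8321 in MeXis null, a difference of -1.99 (surface-corrected -1.63). The Rpl13 probe, named for a ribosomal protein of the large subunit whose RefSeq gene is on chromosome 8, ends just before it on the same strand and read 28294 and 32838 (0.12). The Rpl13 probe was printed as 10 spots, from 20517 to 38873 in WT and from 28108 to 46638 in MeXis null, so that the ranges overlapped. Its spot differences had a mean of 0.12 and an SD of 0.34, with 6 of 10 above 0 and none past 2-fold. ENSMUST00000121199 had 1 spot. ENSMUST00000116189, 0.62 Mb on the other side of MeXis, was also printed 10 times: its spots ran from 4293 to 10547 in WT and from 6605 to 13438 in MeXis null, and its spot differences ran from -0.61 to 1.05 (mean 0.40, SD 0.53). Of these 10 spots, 1 lay past 2-fold.

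**Figure D3:**
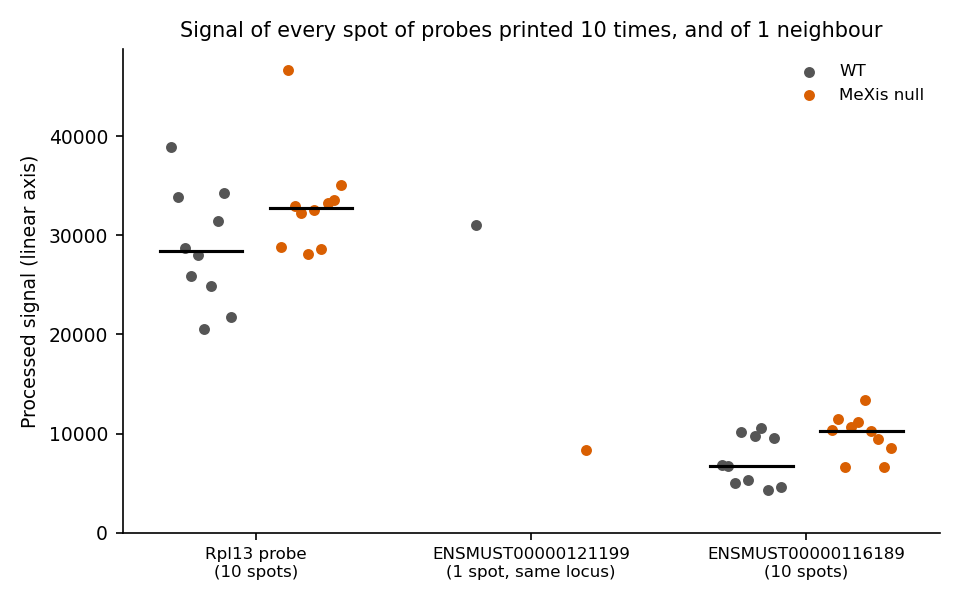
Processed signal (linear axis) of every spot of the Rpl13 and ENSMUST00000116189 probes, 10 spots on each array, and of the single ENSMUST00000121199 spot at the Rpl13 probe's locus; lines are medians of 10 spots. The spots of each repeated probe overlap between WT and MeXis null, while the single spot reads 30996 and 8321.

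Pakap, the joined gene of the paralemmin Palm2 and of Akap2, an anchor protein for protein kinase A, read 4820 in WT and 979 in MeXis null with its bright probe at 4.63 Mb. That difference of -2.39 was the lowest of the 105 and stood at -2.28 after surface correction. Of its other probes, only the one at 4.43 Mb was above background on an array, WT, at 28.4 in WT and 36.1 in MeXis null. Coro2a, an actin-binding coronin, was low with every probe that had signal: 1210 in WT and 489 in MeXis null (-1.40), 328 and 155 (-1.17), and 56.8 in WT for a probe that was not above background in MeXis null. The bound of that last probe was 2.22-fold lower (surface-corrected 2.90-fold). The surface-corrected differences of the first 2 probes were -1.14 and -1.04.

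Nans, which makes the sialic acid N-acetylneuraminate as its phosphate, held the highest difference. Its second probe read 1006 in WT and 3942 in MeXis null (1.88, surface-corrected 1.75), but its first probe read 594 and 797 (0.33). Ptgr1, a reductase that inactivates leukotriene B4 and prostaglandins, read 1035 and 3320 with its one measured probe at 5.71 Mb (1.59, surface-corrected 1.03). Erp44, a thioredoxin-family protein that retains clients in the early secretory pathway, read 719 and 1576 (1.04, surface-corrected 0.84). The nuclear receptor gene Nr4a3 read 58.6 and 149 with 1 of its 3 probes (1.25, surface-corrected 0.68), and its others were above background on neither array.

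Most other calls were made by 1 probe of a gene and not by the others. Hsdl2, a peroxisomal dehydrogenase-like protein, read 482 and 163 (-1.65, surface-corrected -0.87) with one probe and 662 and 555 (-0.35) with the other. Snx30, a sorting nexin, read 2071 and 942 (-1.23, surface-corrected -0.51) with its second probe but 280 and 443 (0.57) with its first. Ncbp1, the large subunit of the nuclear cap-binding complex, read 461 and 218 (-1.17, surface-corrected -0.60) and 555 and 677 (0.20). For Rnf20, an E3 ligase that ubiquitinates histone H2B, the probes read 1384 and 682 (-1.11, surface-corrected -0.44) and 3061 and 3582 (0.14). Ecpas, a proteasome adaptor, had 5 measured probes from -1.32 to 0.64, of which 1 was called (surface-corrected -1.01). Inip, a subunit of the SOSS complex that binds single-stranded DNA, had 2 probes higher (1.13 and 1.14, surface-corrected 0.86 and 0.52) and another at -0.21.

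Over the region, 28 genes had at least 2 probes above background on both arrays. In 15 of them the probes had opposite signs, in 7 they lay more than 1 apart on the log2 scale, and the median range within a gene was 0.72. Coro2a alone of the 28 was at least 2-fold changed with every such probe. Counted by 1 probe per gene, the brightest, 5 genes were lower and 5 higher of 66. The same counts by gene were not made over the whole array, so none of them is read as a trait of the region.

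**Figure D4:**
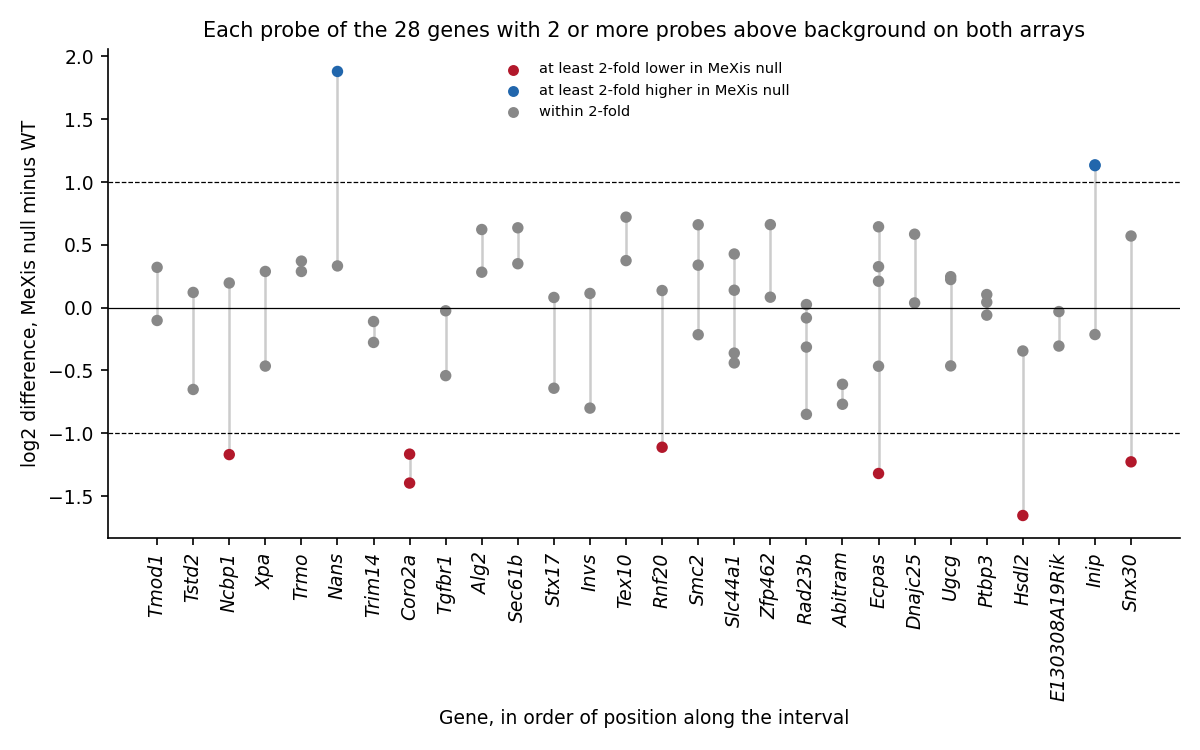
Difference (log2, MeXis null minus WT) of each probe of the 28 genes with 2 or more probes above background on both arrays, in order of position; dashed lines mark 2-fold and grey bars join probes of 1 gene. Both Coro2a points lie below the lower line, while Nans, Inip, Hsdl2, Rnf20, Ncbp1, Ecpas and Snx30 each have a point past a dashed line and another within 2-fold.

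Differences moved with position on the array. Over the 105 probes, the difference and the median difference of the 100 nearest spots had Pearson's r of 0.615 and Spearman's rho of 0.592, as a description. After the neighbours' median was removed, 7 of the 16 calls remained past 2-fold: Pakap, ENSMUST00000121199, both Coro2a probes and the Ecpas probe lower, and Nans and Ptgr1 higher. The calls of Hsdl2, Tmem38b, Snx30, Ncbp1, Rnf20, Nr4a3, Erp44 and Inip fell short of it. A Tstd2 probe, within 2-fold before (758 in WT and 514 in MeXis null, -0.65), passed it at -1.28.

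**Figure D5:**
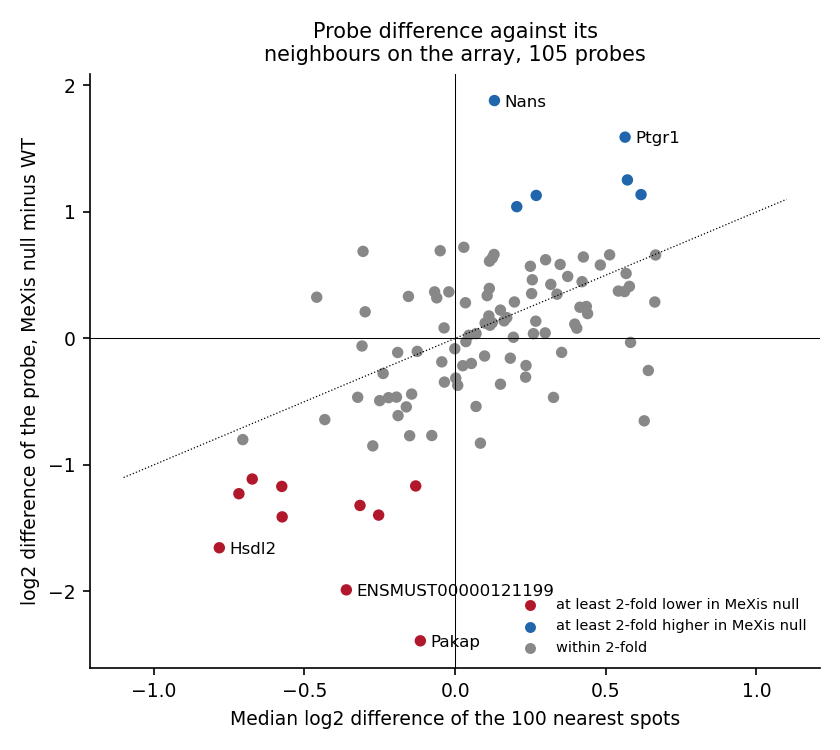
Difference of each of the 105 probes (log2, MeXis null minus WT) against the median difference of its 100 nearest spots on the array; the dotted line marks equal values. Pakap and Nans lie far from the line with neighbours near 0, and Hsdl2 lies at the left, where the neighbours were also low.

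By the roles of their products, the region's genes split as follows, with some genes in more than 1 list. In the smaller lists 1 or 2 calls set the share. Transcription, chromatin and RNA genes had 30 probes above background on both arrays, of which 1 (Rnf20) was lower and 3 (Nr4a3 and 2 Inip probes) higher, beside 4.74% lower and 7.73% higher over all probes. Klf4, a zinc-finger factor of macrophage activation, read 944 and 1286 (0.35), Zfp462 read 74.0 and 83.5 (0.08) and 82.2 and 138 (0.66), and the 3 probes of Ptbp3, an RNA-binding splicing regulator, lay between -0.06 and 0.10. The list's median of 0.12 turned to -0.07 after surface correction.

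Secretory pathway, glycosylation and redox genes had 28 measured probes, with 3 lower and 2 higher (all probes: 4.74% and 7.73%) and a median of 0.22, which turned to -0.10 after surface correction. Sec61b, a subunit of the protein-conducting channel of the endoplasmic reticulum, read 8710 and 11817 (0.35) and 9767 and 16158 (0.64). Alg2, a mannosyltransferase of N-glycan assembly, differed by 0.28 and 0.62. Txn1, the cytosolic thioredoxin, was among the brightest, at 44195 in WT and 34011 in MeXis null (-0.47). None of these passed 2-fold.

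Lipid, metabolite and mitochondrial genes had 12 measured probes, with Hsdl2 lower, Ptgr1 higher (1 of 12 each, all probes: 4.74% and 7.73%) and a median of -0.02. Ugcg, which makes glucosylceramide, had 3 probes measured on both arrays, at -0.46, 0.22 and 0.25, and another above background in MeXis null only, at 16.7 and 41.8. Acnat1, an acyltransferase that conjugates fatty acids and is not in that list, was above background in WT only with 1 of its 2 probes, at 62.7 and 24.3. The bound of that probe was 2.45-fold lower (surface-corrected 2.28-fold), and the gene's other probe read 4.43 and 12.8. The probes of Baat, a liver enzyme that conjugates bile acids, were below background, at most 4.55 in WT and 7.90 in MeXis null.

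Receptor and signalling genes had 10 probes measured on both arrays, with 3 lower, from 2 genes (Pakap and Coro2a), and none higher (all probes: 4.74% and 7.73%), and a median of -0.65 (surface-corrected -0.33). Tgfbr1, the type I receptor for TGF-beta, read 6090 and 6373 (-0.03) with its bright probe and 176 and 129 (-0.54) with another. Gng10, a G-protein gamma subunit, read 1415 and 2435 (0.69), the highest of the list. Susd1 was above background in WT only with its measured probes, at 54.1 and 14.6 and at 56.5 and 21.6. Their bounds were 2.11-fold and 2.21-fold lower (surface-corrected 1.55-fold and 1.79-fold). Cytoskeleton, muscle and germ cell genes had 5 probes measured on both arrays, of which the 2 probes of Coro2a were lower (all probes: 4.74%), and their median was -0.49 (surface-corrected -0.24). Tmod1, which caps the slow end of actin filaments, read 136 and 181 (0.32) and 115 and 114 (-0.10).

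Among the lincRNAs, the plus-strand probe 2.74 Mb above MeXis was bright, at 10102 in WT and 12167 in MeXis null (0.18). The minus-strand probe that overlaps it read 17.2 and 45.4 and was called above background in WT only, so no fold is given. The plus-strand lincRNA at 5.82 Mb was above background in MeXis null only, at 3.44 in WT and 58.2 in MeXis null. Its bound was 4.52-fold higher (surface-corrected 2.95-fold). The minus-strand lincRNA at 2.22 Mb was above background in WT only, at 39.9 and 16.9, with a bound of 1.56-fold lower (surface-corrected 1.23-fold). The lincRNA at 6.04 Mb read 201 and 295 (0.46), that at 2.35 Mb read 159 and 171 (0.01) and that at 4.10 Mb read 83.8 and 81.0 (-0.14).

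Several bright probes share sequence with probes of other genes. The Hemgn probe printed above, named for a nuclear protein of blood-forming cells, read 28421 in WT and 42501 in MeXis null (0.49), whereas the gene's other probe read 3.75 and 6.24 and was not above background. Its printed bases are an unbroken GT repeat, and it shared runs of at least 25 bases with 35 probes of 35 other genes, all above background on both arrays with a median signal of 24928 in WT and 28628 in MeXis null. NAP103572-1, the brightest probe at 55354 and 66048 (0.16), shared 31 bases with a probe of Gm8210, which read 32287 and 65578. The bright Sec61b probe and the Rpl13 probe each shared such a run with 1 other probe. Whether these probes read other transcripts was not tested, and their values are uncertain as measures of the gene they name.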

How the data were processed

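Total RNA of WT and MeXis null peritoneal macrophages was measured on 1 one-colour array each. The deposited scanner files give spot intensity on a linear scale, which Agilent Feature Extraction (11.5.1.1) had background-subtracted and detrended, per the file headers. The deposited matrix equalled these intensities in all 62976 features. Coordinates are mm9, per the file headers.

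The 301 spots of the interval (283 probes) lost 1 outlier spot, and none was saturated. Spots of a probe were averaged on the log2 scale. Each array's 75th percentile, over probes that passed the background call on both, was subtracted. Array-wide, 48.0% of spots were well above background on WT and 44.3% on MeXis null. The number of arrays limits the precision. A probe above background on 1 array got a bound against the higher of its own dim signal and the lowest signal above background there. Some brighter signals were not called above background, so these bounds are not strict limits.

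Names came from RefSeq (GRCm38.p6; names only): of 282 probes, 161 matched by accession, 43 by symbol, 14 by synonym and 64 not. Python 3.11.15, pandas 2.3.3, R 4.3.3 and limma 3.58.1 were used. The counting was tested on simulated data with large changes, no array patches and the WT background calls on both arrays. That test says nothing about calls near 2-fold. Named were MeXis; probes within 1 Mb; the 10 furthest from 0 each way; the brightest 10, and 5 lincRNAs; the 5 largest bounds each way; the extremes of each role list; and genes whose probes lay over 1 apart. Klf4, Alg2 and other genes outside it were chosen after their values were seen. Members and lists were chosen with earlier results of these data known. Exons and UTRs were not analysed here, and some genes of the interval are not reported by name.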

Additional observations from a re-analysis of the deposited data

How the results depend on the processing

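The counts of 10 lower and 6 higher probes and the medians of 0.08 (region) and -0.15 (within 1 Mb of MeXis) were recomputed under other settings. After the local surface correction the counts were 6 and 2 and the region's median -0.10. Without the filter on dim probes the counts were 18 and 47 and the medians 0.47 and 0.40. The median signal over all features of the array was 12.9 in WT and 17.0 in MeXis null. At 1.5-fold the counts were 18 and 16, and at 3-fold 3 and 2. Shares over all probes were not counted without the filter or at these thresholds, so these counts are not read as a trait of the region. With 1 probe per gene 5 were lower. With normexp background correction the median within 1 Mb was 0.026, and taken within 2 Mb it was -0.014. The median of all its probes turned the Ecpas call to 0.21. Of the 16 called probes, 12 stayed past 2-fold in the same direction under normexp, and 15 or more under the other scalings, under quantile normalization and under loess. The causes of these changes were not tested. No paired analysis was possible because each genotype had 1 array, and no replicate could be left out. Signal over background also limits the region: 158 of 282 probes, MeXis among them, were above it on neither array.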
